A study of Mus musculus with 20 samples.

Results

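Solute carriers are membrane proteins that move amino acids, sugars, metals, ions, vitamins and other small molecules across the plasma membrane and the membranes of organelles, and their genes carry the symbol Slc followed by a family number. The genes described here are the 168 of the 24421 listed genes whose symbol begins with Slc and a number and whose raw count averaged at least 50 over all 20 libraries, so they were selected on symbol and abundance, leaving out Slc2a1, Slc2a3, Slc7a2, Slc7a11, Slc16a1 and Slc16a3. The table lists 373 such symbols, of which 199 were under that mean and 49 had no count in any library. Bone marrow-derived dendritic cells (BMDCs) were grown from wild-type C57BL/6 mice for 8 days with GM-CSF at 40 ng/mL, a culture that yields cells with dendritic cell and macrophage features, and RNA was sequenced in bulk. Cells of 5 mice (A to E) were each split over 4 groups, which received DMSO or the bromodomain inhibitor I-BET151 (iBET, 3.3 μM) together with ovalbumin (Ova) or ovalbumin bound by rabbit anti-ovalbumin antibody (immune complex, IC) for 4 hours. Each group, named by inhibitor and stimulus (DMSO Ova, DMSO IC, iBET Ova or iBET IC), holds 5 libraries. The sample labels give 5% DMSO for the controls without saying whether iBET cells received it, they describe iBET and stimulus as given together whereas the methods place iBET before the stimulus, and they give neither sex nor age of the donor mice. The labels also state that cells were sorted, with no gate named, whereas the methods describe lysis in culture.

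Carriers at the cell surface decide which nutrients and metals a cell can take up, carriers of the Slc25 family serve the inner mitochondrial membrane, and carriers of lysosomes return amino acids, nucleosides, haem and metals from degraded cargo to the cytosol. In phagocytes this traffic is tied to the handling of swallowed material, to iron recycling and to the withholding of metals from microbes. BET proteins bind acetylated histones at active promoters and enhancers, and iBET displaces them. IC crosslinks Fcγ receptors, the receptors of antibody-coated particles.

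Total counts per library ranged from 16447491 to 29245150, and the 168 members together took 0.826% to 0.944% of them. All 6 dendritic cell markers listed (Itgax, H2-Ab1, Cd74, Flt3, Zbtb46 and Ccr7) averaged over 1 CPM (TMM-normalized CPM, a gene's share of the library on a fixed scale), although Flt3 averaged 0.242 CPM in iBET Ova and 0.349 CPM in iBET IC cells. The summed level of 5 macrophage markers (Adgre1, Csf1r, Mertk, C1qa and Cd14) ranged from 1147 to 1661 CPM in DMSO Ova, 1205 to 1696 in DMSO IC, 733.7 to 1039 in iBET Ova and 781.7 to 1159 in iBET IC libraries. The sum was thus lower with iBET, but the 5 markers did not move alike. Mean Csf1r, the largest part, was 1032 CPM in DMSO Ova and 582.3 in iBET Ova, 1013 in DMSO IC and 630.9 in iBET IC cells. C1qa and Cd14 also had lower means with iBET. Adgre1 (163.4 and 145.8 CPM with Ova, 160.4 and 159.7 with IC) and Mertk (78.77 and 71.79, 96.23 and 87.18) changed less. The part of these markers in the changes with iBET given below was not tested. In bulk RNA, fewer cells of a type and less RNA per cell cannot be told apart. The summed markers of neutrophils (11.77 to 48.68 CPM), of mast cells and basophils (2.928 to 13.23 CPM), of erythroid cells (up to 6.618 CPM) and of lymphocytes (up to 0.4085 CPM) were low in every library. The mast cell and basophil sum overlapped between DMSO Ova (5.454 to 13.23) and iBET Ova libraries (2.928 to 6.403), and between DMSO IC (6.256 to 11.76) and iBET IC libraries (4.255 to 8.538). Its largest part, Gata2, had lower means with iBET (6.963 and 2.974 CPM with Ova, 6.824 and 3.788 with IC). Cpa3 did not move alike (1.548 and 1.089, 1.65 and 1.842), and Mcpt8, Ms4a2 and Prss34 averaged under 1 CPM.

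By substrate, the members comprised 34 mitochondrial carriers, 26 carriers of metals and haem, 21 of inorganic ions and protons, 20 of amino acids, 20 of nucleotide sugars, 10 of sugars, polyols and sugar phosphates, 10 of organic ions, osmolytes and amines, 9 of vitamins, choline and cofactors, 5 of fatty and bile acids, 4 of nucleosides and nucleotides, 3 of carboxylates and 2 of peptides and histidine, beside 4 genes that share the symbol but encode no carrier. The class follows the family number, and some members have several substrates or none that is known. Of the 168, 161 averaged at least 50 counts in each of the 4 groups, and 7 (Slc4a11, Slc6a4, Slc16a7, Slc25a26, Slc25a29, Slc25a42 and Slc25a43) averaged under 50 in 1 to 3 groups. The members just inside the minimum were Slc4a11 and Slc25a42, with means of 50.9 and 53.8 counts, and the genes just outside it were Slc46a3 and Slc18a1, with 45.5 and 44.2 counts. All 168 passed the filter on low counts and were tested, as were 33 of the 199 genes under the minimum.

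Per length of exon, the levels of the members spread from 0.228 to 276 RPKM (TMM-normalized CPM per kilobase, mean of the 20 libraries), with a median of 5.72, 48 members at 10 RPKM or more and 12 under 1. Slc25a5, the main exchanger of ADP and ATP across the inner mitochondrial membrane in proliferating cells, was the highest at 276 RPKM. It was followed by Slc3a2, the heavy chain that carries several amino acid transporters to the surface (90.9 RPKM), Slc9a3r1, a scaffold protein that is no carrier (74.4), the taurine carrier Slc6a6 (73.6) and the zinc carrier Slc39a1 (67.3). The amino acid carrier Slc7a5 stood at 62.8 RPKM and Slc48a1, which moves haem out of phagolysosomes, at 59.0 RPKM. Summed by class, mitochondrial carriers had 1832 ± 67.2 CPM in DMSO Ova and 2186 ± 72.7 CPM in iBET IC libraries (SD, n = 5), and amino acid carriers stood at 1905 ± 95.5 CPM in DMSO Ova and 1663 ± 122 CPM in iBET IC libraries. The summed level of the organic ion, osmolyte and amine class, mostly Slc6a6, was 893 ± 50.9 CPM in DMSO Ova and 976 ± 56.7 in DMSO IC against 598 ± 39.3 in iBET Ova and 678 ± 33.1 in iBET IC libraries, and the DMSO and iBET libraries did not overlap.

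The first comparison asked how iBET changed the members under each stimulus. Throughout, ± gives the SD of 5 mice after a CPM and the SE after a log2 fold change. Where a change is said not to pass without a mouse, the fit left that mouse out and had no term for the mouse. A fit with the mouse as a block, which pairs the libraries of a mouse, lost no call of a member. With Ova, 64 members were higher and 48 lower with iBET by the quasi-likelihood test of edgeR at a Benjamini-Hochberg adjusted p under 0.05. Of all 12465 genes tested, 27.7% were higher and 28.9% lower, beside 38.1% and 28.6% of the members. Scaled by library size only, 51 members were higher and 55 lower, so that the excess of higher over lower calls among the members depended on the scaling. The shares of all genes under that scaling are not given, so the members cannot be set against them there. Of the 10608 tested genes that also averaged at least 50 counts, 29.3% were higher and 29.2% lower. With IC, 55 members were higher and 53 lower (32.7% and 31.5%), against 27.1% and 29% of all genes and 28.6% and 29.3% of those with at least 50 counts, and scaling by library size only gave 50 higher and 60 lower. The CPM of the DMSO and iBET libraries did not overlap for 40 members that were higher and 31 that were lower with Ova (background 18.5% and 19.5%), and for 40 and 37 with IC (background 21.1% and 21.6%). The median log2 fold change over the 168 was -0.00492 with Ova and 0.0091 with IC, beside -0.00287 and -0.00537 over all genes, values that the scaling sets in large part (-0.0572 and -0.0419 over the 168 with library size only, beside -0.0552 and -0.057 over all genes). Calls with at least a doubling were fewer, 12 higher and 14 lower with Ova (background 4.92% and 10%) and 13 and 15 with IC (background 5.3% and 9.68%). Both comparisons used separate libraries of the same mice, and 53 members were called higher in both, 44 lower in both and 0 in opposite directions.

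**Figure D1:**
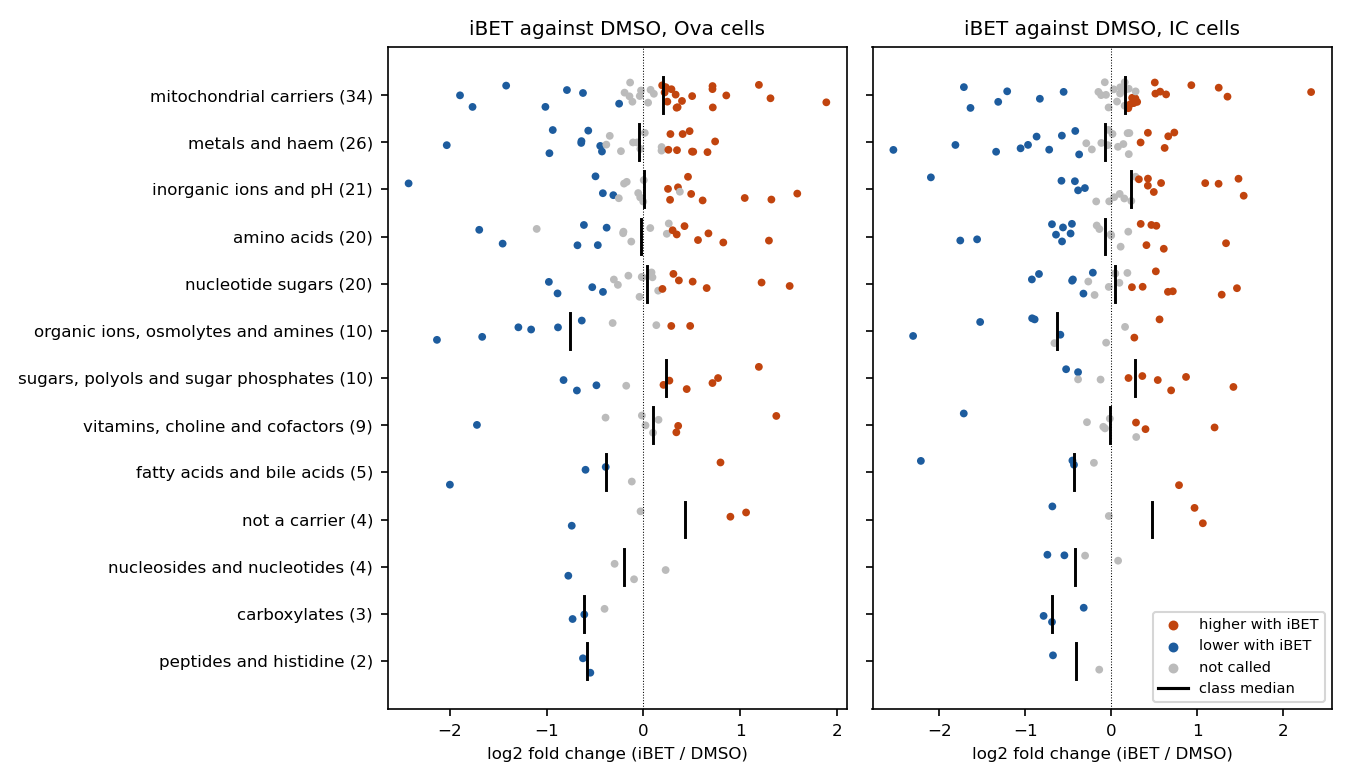
Each point is 1 of the 168 members, placed by its log2 fold change with iBET (x axis) and its substrate class (y axis, number of members in parentheses), in Ova cells (left) and IC cells (right). Orange-red and blue mark members called higher and lower by edgeR (64 and 48 with Ova, 55 and 53 with IC), grey those not called, and black bars the class medians, which lie above 0 for mitochondrial carriers and sugars and below 0 for organic ions and osmolytes under both stimuli.

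By class, calls were counted without a test. Of the 34 mitochondrial carriers, 18 rose and 7 fell with iBET in Ova cells and 14 rose and 6 fell in IC cells, with a class median log2 fold change of 0.21 and 0.16. Among the 10 sugar, polyol and sugar phosphate carriers, 6 rose under each stimulus while 3 (Ova) and 2 (IC) fell. The 10 carriers of organic ions, osmolytes and amines went the other way, with 2 higher and 6 lower in Ova cells and 2 higher and 5 lower in IC cells, and class medians of -0.76 and -0.62. Carriers of amino acids (7 higher and 6 lower with Ova, 6 and 8 with IC), of nucleotide sugars (7 and 4, 7 and 6) and of metals and haem (9 and 8, 5 and 10) had calls on both sides. These counts are to be read beside the background shares above, which apply to single classes as well.

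To show the sequence in front of members that moved with iBET, the promoters of 4 of them are printed here as RefSeq gives them (GRCm38.p6), 250 bases up to the annotated start on the strand of the gene. Capitals mark 2 of 5 short motifs that were searched on both strands of windows of 250 bases before and 50 after the start, using the first listed window of each gene. TGANTCA was searched in the 127 members with a listed window. This string covers the core bound by AP-1 factors, TGAGTCA or TGACTCA, but also TGATTCA, the stretch marked in Slc6a12. The counts of TGANTCA below do not separate these strings. The first pair holds TGANTCA and fell with iBET. Slc6a12 (carrier of betaine and GABA, chr6:121342324-121342573, plus strand, the first of several listed starts) and Slc37a2 (glucose-6-phosphate carrier, chr9:37255739-37255988, minus strand) read
Slc6a12: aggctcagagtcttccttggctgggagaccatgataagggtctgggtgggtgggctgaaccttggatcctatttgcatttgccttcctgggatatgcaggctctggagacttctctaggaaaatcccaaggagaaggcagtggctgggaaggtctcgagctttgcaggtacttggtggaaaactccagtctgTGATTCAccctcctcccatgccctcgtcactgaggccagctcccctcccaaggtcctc
Slc37a2: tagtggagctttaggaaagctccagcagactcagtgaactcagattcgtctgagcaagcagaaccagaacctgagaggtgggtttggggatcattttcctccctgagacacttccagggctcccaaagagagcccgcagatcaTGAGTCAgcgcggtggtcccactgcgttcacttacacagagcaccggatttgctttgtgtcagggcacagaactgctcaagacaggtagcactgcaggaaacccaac
CACGTG, the E-box read by MYC and TFE factors, is held by the second pair, which rose with iBET. Slc35e3 (an orphan of the nucleotide sugar family, chr10:117746359-117746608, minus strand) and Slc25a33 (mitochondrial carrier of pyrimidine nucleotides, chr4:149774268-149774517, minus strand) read
Slc35e3: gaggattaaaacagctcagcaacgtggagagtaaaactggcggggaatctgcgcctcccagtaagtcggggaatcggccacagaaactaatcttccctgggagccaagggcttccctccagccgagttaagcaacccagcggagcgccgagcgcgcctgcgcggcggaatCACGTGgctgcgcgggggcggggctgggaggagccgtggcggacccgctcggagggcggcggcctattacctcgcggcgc
Slc25a33: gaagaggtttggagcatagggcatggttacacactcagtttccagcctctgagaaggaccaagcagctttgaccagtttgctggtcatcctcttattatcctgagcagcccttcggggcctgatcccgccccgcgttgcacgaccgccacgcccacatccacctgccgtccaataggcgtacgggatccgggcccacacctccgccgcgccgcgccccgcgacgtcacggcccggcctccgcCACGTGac
These 4 were chosen for their motifs after the values were seen. TGANTCA occurred in 5 of the 34 windows of members that fell with iBET under both stimuli (14.7%) and in 0 of the 40 windows of members that rose under both. It occurred in 7.09% of the windows of all members, 4.98% of the windows of 9306 tested genes and 7.93% of all 27025 windows. CACGTG occurred in 5 of 34 (14.7%) and 6 of 40 (15%) of the same windows, in 14.2% of the members, 10.4% of the tested genes and 7.24% of all windows, and so did not separate the members that rose from those that fell. The other motifs searched were TGANNNNGC, in 25 of the 40 windows of members that rose and 16 of the 34 of members that fell (41.4% of all windows and 43.5% of those of tested genes), TGATGNAA, in 2 and 1 (4.06% and 2.29%), and TATAAA, in 1 and 0 (14.2% and 6.9%). A TGANTCA followed by GC is also a TGANNNNGC. A match is a string of letters in a window and not a measured binding site.

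Among amino acid carriers, Slc7a7, the light chain of the exchanger of cationic for neutral amino acids, fell the most of those named by the rule. Its level was 25, 20.5, 39.7, 35 and 38.2 CPM in the DMSO Ova libraries of mice A to E and 7.31, 5.8, 13.8, 11.3 and 10.7 CPM in iBET Ova. In IC cells it was 19, 15.7, 34.5, 32.5 and 34.7 CPM with DMSO and 6.7, 5.19, 11.5, 12.4 and 11 CPM with iBET. No iBET library reached a DMSO library under either stimulus, and each mouse fell, with a log2 fold change of -1.69 ± 0.29 (SE, adjusted p = 4.92e-05) with Ova and -1.56 ± 0.29 (adjusted p = 0.000122) with IC. Slc7a5, the light chain that takes up leucine and other large neutral amino acids, moved up. Its levels were 216, 174, 313, 222 and 253 CPM in DMSO Ova and 309, 272, 387, 275 and 340.0 CPM in iBET Ova cells of mice A to E. Slc7a5 was thus higher with iBET in each mouse, although the groups overlapped. It rose by 0.42 ± 0.16 on the log2 scale with Ova (adjusted p = 0.0269, not passing without mouse A, B, D or E (0.40 to 0.45)) and by 0.41 ± 0.16 with IC (adjusted p = 0.032, not passing without mouse A, C, D or E (0.37 to 0.45)). Its partner Slc3a2 was not called with Ova, with 289.9 ± 43.1 CPM in DMSO Ova and 266 ± 27.5 CPM in iBET Ova cells (SD, n = 5) and a log2 fold change of -0.12 (adjusted p = 0.255). In IC cells Slc3a2 fell from 433 ± 31.8 to 294 ± 18.4 CPM, a log2 fold change of -0.56 ± 0.09 (adjusted p = 3.26e-05), without overlap between groups.

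Slc1a5, which exchanges glutamine and other small neutral amino acids, rose from 98 ± 9.65 to 145 ± 13.6 CPM with Ova and from 72.6 ± 7.98 to 111 ± 8.02 CPM with IC, log2 fold changes of 0.56 ± 0.09 and 0.61 ± 0.09, and the groups did not overlap under either stimulus. Slc16a10, a carrier of aromatic amino acids, rose by 0.83 and 0.53 on the log2 scale, and Slc7a8, another light chain for neutral amino acids, by 0.67 and 0.47, the change with IC not passing without mouse C or E (0.37 to 0.40) and standing at 0.02 in mice A and B alone and 0.85 in mice C, D and E alone. These 2 sets of mice are not distinguished by any label and were looked at because they stood apart in earlier results of these data. Smaller rises were called for Slc38a9, a lysosomal arginine sensor (0.30 with Ova, not passing without mouse A, C, D or E (0.27 to 0.36), and 0.34 with IC, not passing without mouse D or E (0.30 to 0.33)). Slc38a2, a sodium-coupled carrier of small neutral amino acids, rose by 0.34 with Ova (adjusted p = 0.0275, not passing without mouse A, B or C (0.28 to 0.35)), and its 0.20 with IC passed with the mouse as a block (adjusted p = 0.0473) and not without it (0.193). Slc7a1, the carrier of arginine and lysine, had 0.24 with Ova (adjusted p = 0.166, and 0.0427 with the mouse as a block) and -0.17 with IC (adjusted p = 0.345).

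Zinc is carried by 2 families. Of the 11 members of the Slc39 family, which bring zinc and other metals into the cytosol, 5 fell and 1 rose with iBET in Ova cells and 6 fell and 1 rose in IC cells. Of the 6 members of the Slc30 family, most of which remove zinc from the cytosol, 4 rose in Ova and 2 (Slc30a5 and Slc30a9) in IC cells, and 0 fell. The background was 27.7% higher and 28.9% lower in Ova cells and 27.1% and 29% in IC cells, and these small families were looked at after the values were seen, with no test. Slc39a2, a zinc carrier, had 37.8, 25.1, 17.5, 11.9 and 19 CPM in DMSO IC and 7.36, 4.24, 2.79, 2.15 and 2.28 CPM in iBET IC cells of mice A to E. It fell in each mouse, with a log2 fold change of -2.53 ± 0.42 (adjusted p = 4e-05) with IC and -2.03 ± 0.43 (adjusted p = 0.00045) with Ova, and mouse A stood highest in every group. Slc39a13, which releases zinc from the secretory pathway, fell by 0.57 and 0.97 on the log2 scale. Slc30a1, the zinc exporter of the plasma membrane, rose from 35.5 ± 3.42 to 47 ± 4.43 CPM with Ova (0.41, adjusted p = 0.00297), and its 0.21 with IC passed with the mouse as a block (adjusted p = 0.00884) and not without it (0.0962).

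Among the named carriers of iron, haem and copper, Slc11a1 and Slc48a1 were called lower with iBET under both stimuli. Slc40a1, described further on, was called lower with IC, and Slc11a2 and Slc31a1 higher with Ova. Slc11a1, which moves iron and manganese out of the phagosome, had 44.4, 34.9, 27.7, 19.7 and 25.8 CPM in DMSO IC and 17.2, 15, 11, 7.96 and 8.79 CPM in iBET IC cells of mice A to E, with no overlap. It fell by 1.34 on the log2 scale with IC (adjusted p = 0.00274) and by 0.97 with Ova (adjusted p = 0.0229, not passing without mouse B or E (-0.99 to -0.92)), where the groups overlapped. Slc48a1, the haem carrier, fell from 165 ± 24.4 to 121 ± 11.5 CPM with Ova and from 217 ± 18.1 to 146 ± 14.8 CPM with IC (-0.45 ± 0.10 and -0.57 ± 0.10), without overlap under either stimulus. The copper carrier Slc31a1 rose by 0.35 with Ova (adjusted p = 0.00341) and had 0.14 with IC (adjusted p = 0.196). Slc11a2, which takes up ferrous iron, rose by 0.28 with Ova (adjusted p = 0.0265, not passing without mouse B, C or E (0.26 to 0.28)) and had 0.02 with IC. Slc39a14, a carrier of zinc and iron, had -0.11 (adjusted p = 0.397) and -0.22 (adjusted p = 0.0723, and 0.000707 with the mouse as a block).

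In the mitochondrial class, the largest rises among those named by the rule were Slc25a33 and Slc25a30. Slc25a33 had 8.64, 6.4, 8.57, 5.5 and 6.05 CPM in DMSO Ova and 16, 17, 18.6, 15.5 and 20.5 CPM in iBET Ova cells of mice A to E. It rose without overlap, by 1.31 ± 0.12 with Ova and 1.25 ± 0.12 with IC on the log2 scale (adjusted p = 2.07e-08 and 2.99e-08). Its exons overlap those of Gm13068 on the other strand over 14.9% of their length, and whether counting used strand is not stated. Slc25a30 rose from 27.2 ± 2.31 to 62.2 ± 5.07 CPM with Ova and from 24.9 ± 2.59 to 63.7 ± 3.92 CPM with IC (1.19 ± 0.08 and 1.35 ± 0.08). Slc25a44, a carrier of branched-chain amino acids, rose by 0.71 ± 0.10 and 0.51 ± 0.10. The abundant Slc25a5 and the phosphate carrier Slc25a3 rose by less, Slc25a5 by 0.23 and 0.22 and Slc25a3 by 0.19 (not passing without mouse C or E (0.16 to 0.19)) and 0.25. The citrate carrier Slc25a1 rose by 0.22 with Ova (adjusted p = 0.0326, not passing without mouse A, C, D or E (0.17 to 0.23)) and had 0.10 with IC (adjusted p = 0.304). Slc25a37, which brings iron into mitochondria, had -0.04 and -0.03, with standard errors of 0.24 and 0.24, and was not called.

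Slc25a24, which exchanges ATP-Mg for phosphate, fell the most of the mitochondrial carriers named by the rule. It had 145, 141, 131, 135 and 139 CPM in DMSO Ova and 66.1, 73.6, 70.6, 66.3 and 66.3 CPM in iBET Ova cells of mice A to E. In IC cells the levels were 109.7, 124, 112, 112 and 103 CPM with DMSO and 45.8, 52.5, 46.7, 47.6 and 50.1 CPM with iBET. The spread between mice was small beside the difference, and on the log2 scale iBET changed it by -1.01 ± 0.06 in Ova and -1.21 ± 0.06 in IC cells (adjusted p = 1.68e-11 and 1.5e-12). Slc25a45 fell by 0.25 with Ova, and its -0.15 with IC passed with the mouse as a block (adjusted p = 0.038) and not without it (0.0511).

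Osmolyte carriers held the member with the highest CPM and, of the members named by the rule, the one with the largest fall in Ova cells. Slc6a6, the taurine carrier and the member with the highest CPM (mean of 623 over the 20 libraries), fell from 719 ± 54.4 to 463 ± 34.8 CPM with Ova and from 786 ± 54.4 to 523 ± 25.1 CPM with IC, log2 fold changes of -0.64 ± 0.07 and -0.59 ± 0.07. Slc6a12, whose promoter is printed above, had 31.1, 22.7, 23, 15.4 and 19.1 CPM in DMSO Ova and 7.07, 4.61, 4.67, 3.96 and 4.98 CPM in iBET Ova cells of mice A to E. In IC cells it had 33.1, 28.5, 25.2, 20.5 and 33.5 CPM with DMSO and 6.29, 5.76, 5.43, 3.43 and 7.62 CPM with iBET. It fell in each mouse without overlap, by 2.13 and 2.30 on the log2 scale (adjusted p = 5.32e-08 and 1.66e-08). The creatine carrier Slc6a8 had 0.13 (adjusted p = 0.482) and 0.16 (adjusted p = 0.381, and 0.0191 with the mouse as a block). The carrier of another osmolyte, Slc5a3, which takes up myo-inositol and is classed here with the sugars, rose from 13.7 ± 1.92 to 31.4 ± 7.04 CPM with Ova and from 13.3 ± 1.68 to 35.7 ± 3.55 CPM with IC (1.19 ± 0.13 and 1.42 ± 0.13), and part of its exons (2.91%) is shared with Mrps6 and Gm49711 on the same strand. Among the sugar carriers, Slc37a2 fell by 0.69 and 0.52. Slc2a6, a glucose transporter of lysosomal membranes, had -0.18 with Ova (adjusted p = 0.323, and 0.0116 with the mouse as a block) and -0.12 with IC.

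Vitamin carriers moved in both directions. Slc19a2, which takes up thiamine, had 19.2, 15.8, 16.1, 13.8 and 15.4 CPM in DMSO Ova and 46.9, 48.8, 37.2, 37.9 and 37.2 CPM in iBET Ova cells of mice A to E, and rose by 1.37 ± 0.10 with Ova and 1.20 ± 0.10 with IC. Slc52a3, which takes up riboflavin, had 25.9, 23.9, 31.7, 33.4 and 29.6 CPM in DMSO Ova and 8.12, 5.75, 8.11, 12.3 and 9.54 CPM in iBET Ova cells, and fell by 1.72 and 1.71 with standard errors of 0.16 and 0.17. Neither pair of groups overlapped under either stimulus. Slc23a2, a vitamin C carrier and the most abundant of this class, had 0.10 and -0.07 and was not called. The folate carrier Slc19a1 had -0.39 (adjusted p = 0.0879, and 0.0122 with the mouse as a block) and -0.28 (adjusted p = 0.229).

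Slc27 proteins take up and activate long-chain fatty acids, and 2 of the 3 members fell with iBET while 1 rose. Slc27a3 had 18.2, 17, 51.8, 55 and 44.7 CPM in DMSO Ova and 3.6, 3.8, 10.7, 15.6 and 13.1 CPM in iBET Ova cells of mice A to E, so that mice A and B lay under mice C, D and E within each group and every mouse fell. Its log2 fold change with Ova was -2.00 ± 0.47 (adjusted p = 0.00124), -2.26 in mice A and B alone and -1.89 in mice C, D and E alone, and with IC it was -2.21 ± 0.48 (adjusted p = 0.000593). Slc27a4 rose from 49.1 ± 4.31 to 85.3 ± 7.08 CPM with Ova and from 48.6 ± 4.09 to 84 ± 3.69 CPM with IC (0.80 ± 0.07 and 0.79 ± 0.07). The widest changes among all members included genes that the rule for naming did not reach and that were named after their values were seen. The largest rise was that of Slc25a42, a mitochondrial carrier of coenzyme A, by 1.89 ± 0.27 with Ova and 2.33 ± 0.29 with IC. Its mean was only 53.8 counts, with 28.6 in DMSO Ova, 14.4 in DMSO IC, 101.4 in iBET Ova and 70.8 in iBET IC cells. It thus met the minimum of 50 only through the iBET groups, and its rank as the largest rise is tied to that selection. The mitochondrial carriers Slc25a26, of S-adenosylmethionine, and Slc25a43, also near the minimum of 50 counts, fell by 1.89 and 1.76 with Ova and by 1.63 and 1.71 with IC. Slc25a26 met the minimum only through the DMSO groups (92.8 counts in DMSO Ova and 78.8 in DMSO IC, 23.6 in iBET Ova and 25.8 in iBET IC cells). Slc25a43 is also among the 7 members under 50 counts in 1 to 3 groups. The sodium-potassium-chloride cotransporter Slc12a2 rose by 1.59 ± 0.11 with Ova and 1.54 ± 0.11 with IC, and the neutral amino acid exchanger Slc1a4 by 1.30 ± 0.27 and 1.34 ± 0.27. The bicarbonate carrier Slc4a8 fell by 2.42 and 2.10, and Slc43a2, a carrier of large neutral amino acids, by 1.45 and 1.75. Of the 32 families with at least 2 members, 15 had calls in both directions with iBET in Ova cells and 14 in IC cells.

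Among carriers of ions, Slc20a2, a sodium-phosphate cotransporter, rose from 8.6 ± 1.76 to 21.4 ± 1.79 CPM with Ova and from 7.71 ± 1.99 to 21.5 ± 2.17 CPM with IC (1.32 ± 0.15 and 1.48 ± 0.15). Its paralog Slc20a1 moved the other way in IC cells, with a log2 fold change of -0.58 ± 0.14 (adjusted p = 0.00119), and had -0.25 with Ova (adjusted p = 0.117, and 0.00141 with the mouse as a block). Slc20a1 overlaps other genes on the opposite strand over 13.1% of its exons. Slc12a7, which moves potassium and chloride out of the cell, rose by 0.25 with Ova (not passing without mouse A or D (0.19 to 0.20)) and 0.32 with IC.

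Slc35e3, with its promoter printed above, had the largest rise in Ova cells of the members named by the rule. It had 10.5, 10.7, 9.75, 10.9 and 9.39 CPM in DMSO Ova and 26.8, 31.7, 28.4, 32.7 and 26.7 CPM in iBET Ova cells of mice A to E. In IC cells it had 10.8, 11.3, 10.8, 11.4 and 10.1 CPM with DMSO and 30.5, 31.7, 28.7, 30.4 and 29 CPM with iBET. The log2 fold changes were 1.51 ± 0.07 and 1.46 ± 0.07 (adjusted p = 1.08e-12 and 1.52e-12). Slc35f6, the most abundant member of the family by CPM, had -0.01 and -0.03 and was not called. The lysosomal carriers of histidine and short peptides, Slc15a3 and Slc15a4, were both lower in iBET Ova cells (-0.55 ± 0.18, not passing without mouse B, C or E (-0.57 to -0.47), and -0.62 ± 0.09). In IC cells Slc15a4 fell by 0.68 (adjusted p = 3.43e-06) and Slc15a3 had -0.14 (adjusted p = 0.542). Tmem132a overlaps 28.1% of the Slc15a3 exons on the opposite strand. Slc29a3, which releases nucleosides from lysosomes, fell from 132 ± 27.2 to 77.1 ± 15.6 CPM with Ova and from 124 ± 23.2 to 74.5 ± 10.2 CPM with IC. Its plasma membrane relative Slc29a1 had -0.30 and -0.30, which passed with the mouse as a block and not without it (adjusted p = 0.000786 and 0.000254). Slc43a3, a carrier of purine bases, fell by 0.54 with IC (adjusted p = 0.00274) and had -0.10 with Ova. Of the 3 carboxylate carriers, Slc16a6 was the most abundant. It fell by 0.69 with IC and had -0.40 with Ova (adjusted p = 0.06, and 0.000679 with the mouse as a block), and Amz2 and Arsg overlap 22.5% of its exons on the opposite strand. The scaffold Slc9a3r1, one of the 4 genes that encode no carrier, rose by 0.90 and 1.07.

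The second comparison asked which members IC changed against Ova. In DMSO cells 20 members were higher and 18 lower with IC by edgeR, 11.9% and 10.7% of the members against 9.59% and 10.7% of all genes tested, so the members were called about as often as other genes. In iBET cells 13 were higher and 12 lower, 7.74% and 7.14% of the members against 5.19% and 6.63% of all genes. Of the genes with at least 50 counts, 10.8% and 11.5% were called in DMSO and 5.97% and 7.2% in iBET cells. The Ova and IC libraries did not overlap for 12 members that were higher and 14 that were lower in DMSO cells (background 5.97% and 6.41%) and for 13 and 10 in iBET cells (background 4.57% and 5.46%). The 2 comparisons use separate libraries, and 11 members were higher in both, 9 lower in both and 0 in opposite directions. With the mouse as a block, the calls came to 44 higher and 36 lower in DMSO cells (background 18.3% and 19.8%) and 24 higher and 33 lower in iBET cells (background 14.2% and 14.7%). Without mouse C only 9 members were lower in DMSO cells and 7 higher and 6 lower in iBET cells, without mouse A 5 were lower and without mouse D 8 were higher and 7 lower in iBET cells. The shares of all genes in these fits without a mouse are not given. Scaling by library size only shifted the median of all genes by -0.13 in DMSO and -0.12 in iBET cells and the calls to 15 up against 41 down in the former and 11 up against 35 down in the latter, while no member that was called changed sign. At least a doubling was seen for 1 member with IC in DMSO cells (background 0.802% higher and 0.674% lower), Slc40a1, and in iBET cells for 1 that fell, the glycine carrier Slc6a9 (background 0.489% higher and 0.321% lower), which was named after its values were seen.

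**Figure D2:**
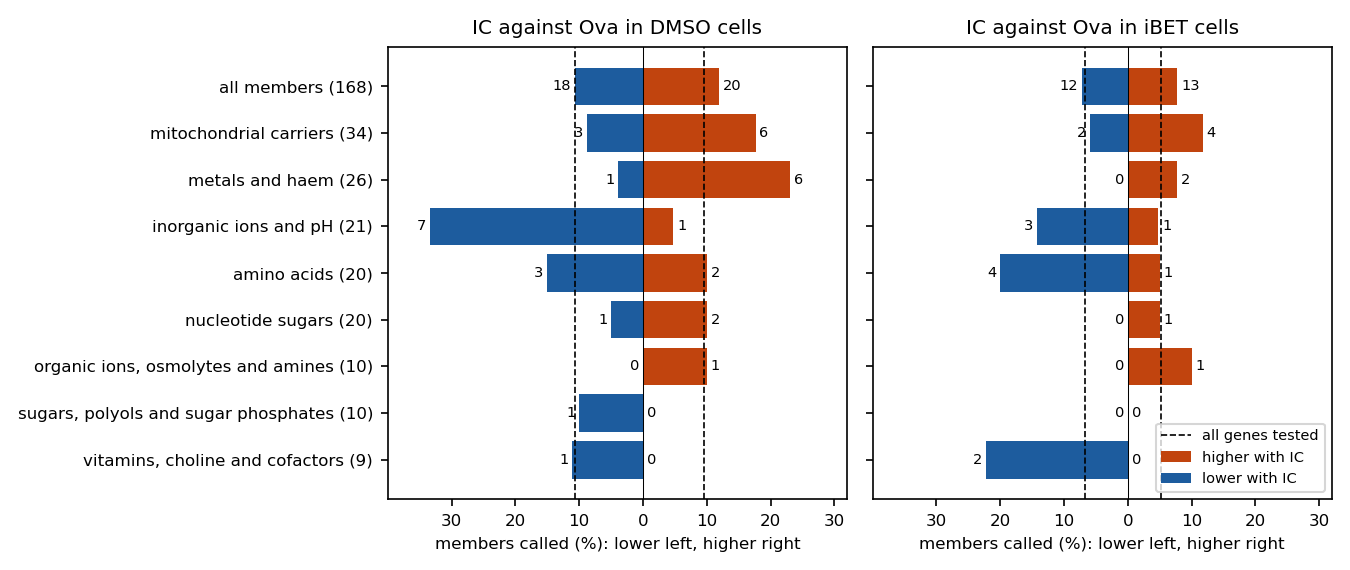
Bars give the share of members of each class (number in parentheses, classes of at least 9) called higher (right, orange-red) or lower (left, blue) with IC against Ova by edgeR, in DMSO cells (left panel) and iBET cells (right panel), with the number of members at the end of each bar. Dashed lines mark the shares over all genes tested, and in DMSO cells metal and haem carriers were called higher (6 of 26) and inorganic ion carriers lower (7 of 21).

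By class, 6 of the 26 metal and haem carriers rose with IC in DMSO cells and 1 fell (23.1% and 3.85%), and with the mouse as a block 17 rose and 1 fell. In iBET cells 2 rose and 0 fell, and with the block 7 rose and 2 fell. Of the 21 carriers of inorganic ions and protons, 1 rose and 7 fell (33.3%) in DMSO cells and 1 rose and 3 fell in iBET cells. These included 3 of the 5 members of the Slc12 family of chloride cotransporters and 3 of the 4 carriers of the Slc4 family, which mostly move bicarbonate, in DMSO cells. The families were looked at after the values were seen, and neither classes nor families were tested. The background was 9.59% higher and 10.7% lower in DMSO cells and 5.19% and 6.63% in iBET cells. With the block it was 18.3% and 19.8% in DMSO cells and 14.2% and 14.7% in iBET cells. Of the 34 mitochondrial carriers, 6 rose and 3 fell in DMSO and 4 rose and 2 fell in iBET cells. Among the 20 amino acid carriers, 2 rose and 3 fell in DMSO and 1 rose and 4 fell in iBET cells, where the block gave 1 and 9.

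The largest rises with IC in DMSO cells were those of the iron carriers Slc40a1 and Slc11a2, while in iBET cells Slc26a11 and Slc15a3, described further on, had larger log2 fold changes than Slc40a1. Slc40a1 encodes ferroportin, the only known exporter of iron from the cell, and lies at chr1:45908068-45926523 on the minus strand (GENCODE M21, GRCm38). It had 4.61, 6.7, 6.17, 8.3 and 7.18 CPM in DMSO Ova and 23, 19.2, 38.6, 35 and 28.9 CPM in DMSO IC cells of mice A to E. In iBET cells it had 3.92, 6.13, 4.84, 5.81 and 4.64 CPM with Ova and 7.29, 6.4, 9.99, 9.59 and 8.18 CPM with IC. Every DMSO IC library lay above every other library, and the iBET IC libraries lay above the iBET Ova libraries. The log2 fold change with IC was 2.14 ± 0.19 in DMSO cells (adjusted p = 3.36e-07) and 0.71 ± 0.20 in iBET cells (adjusted p = 0.0235, not passing without mouse A, C, D or E (0.62 to 0.71)). With iBET it fell by 1.81 in IC cells (adjusted p = 1.05e-07) and had -0.38 in Ova cells (adjusted p = 0.108, and 0.0365 with the mouse as a block). The annotated exons span 9000 bases in union, which gives a mean of only 1.36 RPKM.

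**Figure D3:**
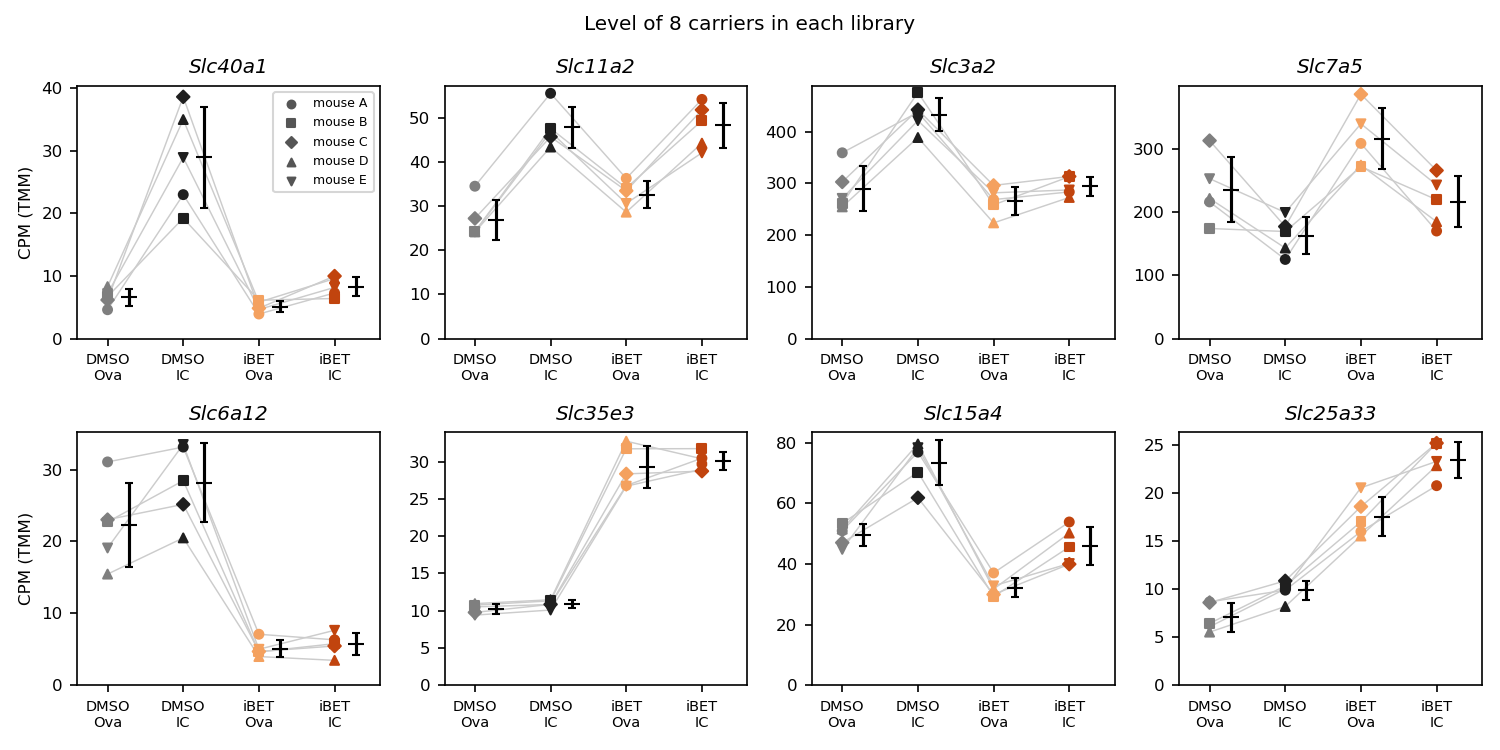
TMM-normalized CPM (y axis, from 0) of 8 carriers in each of the 20 libraries, with the groups on the x axis, a symbol for each mouse, grey lines joining the libraries of a mouse and black bars for the mean ± SD of 5 mice. Slc40a1 is high in DMSO IC libraries (19.2 to 38.6 CPM), Slc6a12 is low and Slc35e3 high in both iBET groups, and Slc15a4 and Slc25a33 respond to IC and to iBET.

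Slc11a2, which carries ferrous iron, had 34.6, 24.2, 27.3, 24.2 and 24.2 CPM in DMSO Ova and 55.7, 47.7, 45.8, 43.5 and 46.9 CPM in DMSO IC cells of mice A to E. It rose in DMSO and in iBET cells without overlap, by 0.83 ± 0.10 and 0.57 ± 0.10 on the log2 scale (adjusted p = 1.66e-05 and 0.00125). Slc48a1, the haem carrier, rose by 0.39 ± 0.10 in DMSO cells (adjusted p = 0.00671), and its 0.27 in iBET cells passed with the block (adjusted p = 0.000533) and not without it (0.0749). Slc39a14 rose by 0.41 in DMSO cells (not passing without mouse B or C (0.38 to 0.39)) and had 0.30 in iBET cells (adjusted p = 0.0694, and 0.000247 with the block). Copper uptake carrier Slc31a1 rose by 0.36 in DMSO cells (not passing without mouse C or D (0.35 each)) and had 0.16 in iBET cells (adjusted p = 0.311). Slc11a1 had 0.51 and Slc39a2 0.72 in DMSO cells, which passed with the block (adjusted p = 0.000191 and 3.69e-06) and not without it unless mouse A was left out (0.75 and 0.85).

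Among amino acid carriers, Slc3a2, a heavy chain of several transporters, and the light chain Slc7a5 moved in opposite directions with IC in DMSO cells. The light chains Slc7a7 (-0.21) and Slc7a8 (0.22) were not called there. The level of the cystine carrier Slc7a11, left out by name and given below, was higher with IC in DMSO cells. In DMSO cells Slc3a2 rose with IC, from 359, 261, 303, 255 and 271 CPM to 438, 476, 443, 389 and 422 CPM in mice A to E, without overlap, a log2 fold change of 0.58 ± 0.09 (adjusted p = 0.000208). Slc7a5 fell in the same libraries, from 236 ± 51.7 to 163 ± 29.2 CPM, by 0.53 on the log2 scale (adjusted p = 0.0218, not passing without mouse A, C or D (-0.51 to -0.43)). In iBET cells Slc7a5 fell by 0.55 (adjusted p = 0.0281, not passing without mouse A, C, D or E (-0.56 to -0.48)) and Slc3a2 had 0.15 (adjusted p = 0.338). Slc1a5 fell by 0.43 in DMSO and 0.38 in iBET cells, without overlap of the groups. Slc7a1 fell by 0.61 in iBET cells (adjusted p = 0.0104, not passing without mouse A (-0.53)) and had -0.20 in DMSO cells (adjusted p = 0.373). Slc16a10 had 0.43 in DMSO cells (adjusted p = 0.0523, and 0.00054 with the block).

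Among lysosomal carriers, Slc15a4, a scaffold of endosomal Toll-like receptor signalling as well as a histidine carrier, rose from 49.6 ± 3.51 to 73.5 ± 7.4 CPM in DMSO and from 32.1 ± 3.08 to 46 ± 6.14 CPM in iBET cells (0.57 ± 0.09 and 0.52 ± 0.09), so that its rise with IC and its fall with iBET left iBET IC near DMSO Ova cells. Slc15a3 rose by 0.83 ± 0.18 in iBET cells (adjusted p = 0.00631, not passing without mouse C (0.76)), and its 0.42 in DMSO cells passed with the block (adjusted p = 0.00224) and not without it (0.114). Slc35f6, found in lysosomal membranes, rose by 0.60 and 0.58, the latter not passing without mouse D (0.58). Slc26a11, an anion carrier, rose by 0.65 in DMSO (not passing without mouse A, C, D or E (0.60 to 0.68)) and 0.86 in iBET cells (not passing without mouse A, C or D (0.76 to 0.88)). The creatine carrier Slc6a8 rose by 0.57 (not passing without mouse E (0.53)) and 0.60 (not passing without mouse B, C or E (0.57 to 0.60)).

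Slc25a44 rose with IC by 0.68 ± 0.10 in DMSO and 0.47 ± 0.10 in iBET cells, and Slc25a33 by 0.48 (not passing without mouse B or E (0.43 to 0.44)) and 0.42 (not passing without mouse B, C or D (0.38 to 0.42)). These carriers rose with iBET as well, so that iBET IC cells held the highest levels, 85.6 ± 12 CPM for Slc25a44 and 23.4 ± 1.85 CPM for Slc25a33. Slc25a24 and Slc25a45 fell, by 0.30 and 0.44 in DMSO and 0.50 and 0.34 in iBET cells, without overlap of the groups. Slc52a3 fell by 0.63 in DMSO (not passing without mouse C (-0.59)) and 0.62 in iBET cells (not passing without mouse A, C, D or E (-0.67 to -0.54)), and Slc12a7 by 0.44 in DMSO and 0.37 in iBET cells (not passing without mouse A, B, C or D (-0.39 to -0.29)). The scaffold Slc9a3r1 rose by 0.36 and 0.53.

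Of the 20 members that rose with IC in DMSO cells, iBET lowered 6 and raised 6 in IC cells, and of the 18 that fell with IC, iBET raised 10 and lowered 5. Of all 12465 genes tested, 27.1% were higher and 29% lower with iBET in IC cells, and the shares among all genes that IC changed are not given. These comparisons share the DMSO IC libraries, which by itself favours calls in opposite directions, and the counts are given side by side only.

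The third comparison asked whether the change with IC differed between iBET and DMSO cells, the interaction. No member passed in edgeR (0 higher and 0 lower, against 0.0241% and 0.016% of all genes). An unadjusted p under 0.05 was reached by 7 members, no more than chance alone would give at that threshold. The Wald test of DESeq2 called 1, Slc40a1, and the shares of all genes are not given for either count. With the mouse as a block 4 members passed in edgeR, all with a lower log2 fold change with IC in iBET than in DMSO cells (background 0.401% higher and 0.417% lower). These were Slc40a1 (difference of log2 fold changes -1.43 ± 0.27, adjusted p = 0.0894 without and 0.00111 with the block), Slc3a2 (-0.43 ± 0.13, 0.623 and 0.0451), Slc43a3 (-0.45 ± 0.20, 1 and 0.0188) and the copper carrier Slc31a2 (-0.41 ± 0.27, 1 and 0.0302), which was named after its values were seen. For Slc40a1 the difference was -1.44 in mice A and B alone and -1.40 in mice C, D and E alone. Slc39a13 had -0.40 ± 0.14 (adjusted p = 0.959). For Slc15a4, Slc35f6, Slc7a5 and Slc1a5 the differences were -0.05 ± 0.13, -0.02 ± 0.19, -0.01 ± 0.22 and 0.05 ± 0.12, each smaller than its standard error.

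**Figure D4:**
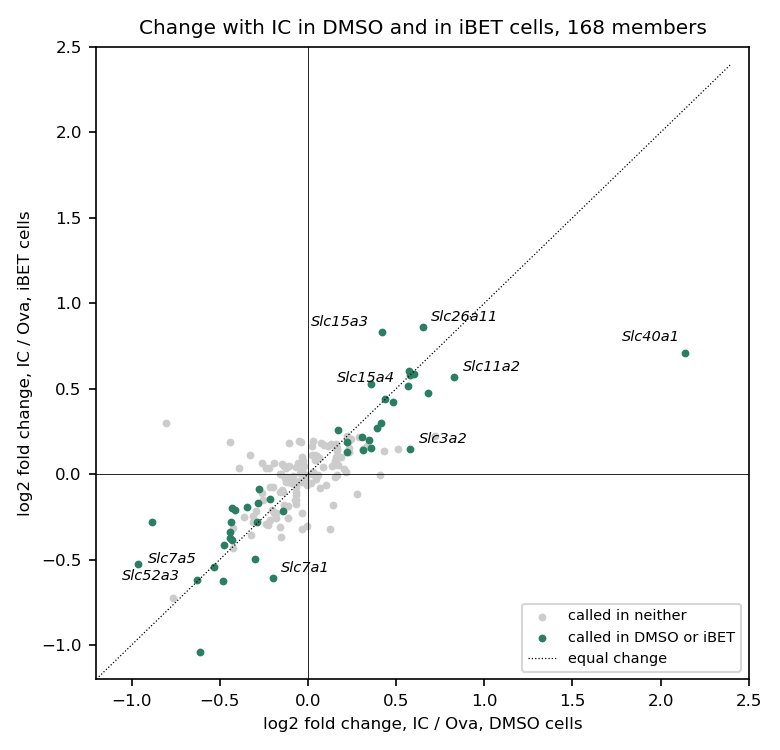
Each point is 1 of the 168 members, placed by its log2 fold change with IC against Ova in DMSO cells (x axis) and in iBET cells (y axis), which come from separate libraries. Green marks members called in either comparison, and the dotted line equal change. Slc40a1 lies far to the right of it (2.14 in DMSO and 0.71 in iBET cells).

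The 6 genes left out by name were also measured. Slc7a11, the cystine carrier, had 483 ± 123, 1310.0 ± 223, 114 ± 40.2 and 415 ± 65.9 CPM in Ova and IC cells with DMSO and then in Ova and IC cells with iBET, and with iBET in Ova cells the log2 fold change was -2.08 for it, -1.26 for Slc7a2, 1.36 for Slc16a1, -0.53 for Slc16a3, 0.46 for Slc2a1 and -0.47 for Slc2a3 (not called, adjusted p = 0.0996, and 0.00106 with the block).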

How the data were processed

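RNA of BMDCs from 5 mice was sequenced in bulk in 4 groups (20 libraries). The authors deposited raw read counts per gene, and per the labels and methods the reads were trimmed and aligned to mm10, with CASAVA, FastQC, Trim Galore, HISAT2 and featureCounts named in the submitters' processing notes. The strand setting of counting is not given in the sources used here, so a gene and its antisense neighbour may share counts. A second deposited table of normalized values was not used. Total counts per library were between 16447491 and 29245150 (median 21764663), and replicate libraries differed by more than counting noise (chi-square of at least 13.2 per degree of freedom over 40 pairs).

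Counts of all 20 libraries entered 1 fit of edgeR (version 4.0.16, R 4.3.3) with a term per group, after its filter on low counts and TMM normalization. Its quasi-likelihood test gave the p-values, with Benjamini-Hochberg adjustment over the 12465 genes tested. All p-values of single genes are from this test or, where said, from the same test with the mouse as a block. The labels give each library its mouse, and deviations from group means correlated at 0.524 on average between libraries of a mouse (0.307 to 0.675 over 30 pairs) and at -0.127 between mice. CPM are TMM-normalized, RPKM use the union of GENCODE M21 exons, and overlaps of exons come from the same annotation. Promoters are RefSeq windows (GRCm38.p6), listed for 127 members. Beside the block, alternatives used DESeq2 1.42.0, surrogate variables (sva 3.50.0), other scalings, no filter, fewer libraries and a minimum fold. The scripts were tested on simulated data.

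The members, substrate classes and lists were chosen with earlier results of these data known. Named were 30 members of a list of known myeloid and metabolic carriers, in each pairwise comparison the 4 largest rises and the 4 largest falls among called members that moved the same way in 5 of 5 mice and averaged at least 200 counts, the member with the highest CPM of each class, the 3 members with the smallest interaction p, and any member called in opposite directions with iBET (0 were). These came to 53 members. The values of some genes are not reported here.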

Additional observations from a re-analysis of the deposited data

Results flagged for a closer look

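In 212 groups of 5 libraries (53 named members in 4 groups each), 2 held a library far from the other 4 by Dixon's criterion (a gap to the nearest library over 0.71 of the range), and chance alone flags about 1 in 20 such groups. Slc20a1, a phosphate carrier, had 57.3 CPM in the DMSO Ova library of mouse D against 66.4 to 68.2 CPM in the other 4, a gap of 0.84 of the range. Slc25a44, a mitochondrial carrier of branched-chain amino acids, had 69.4 CPM in the DMSO IC library of mouse A against 56.2 to 59.2 CPM in the other 4, a gap of 0.776 of the range.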

How the results depend on the processing

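With the mouse as a replicate block, the paired fit, 44 members were higher and 36 lower with IC in DMSO cells, 24 higher and 33 lower in iBET cells and 4 lower in the interaction, and DESeq2 with the same block gave 45 and 36, 25 and 33, and 4. The block lost no call, and for iBET it gave 71 higher and 63 lower with Ova (background 33.5% and 35.2%) and 66 and 62 with IC (background 32.6% and 35.4%). Surrogate variables gave 36 higher and 33 lower with IC in DMSO cells, 24 and 32 in iBET cells and 1 lower in the interaction, and DESeq2 without a block gave 1 lower in the interaction. Scaling by library size only gave 41 lower in DMSO and 35 lower in iBET cells. Mice A and B alone gave 6 higher and 3 lower with IC in DMSO cells and 6 and 1 in iBET cells, whereas mice C, D and E alone gave 33 higher in DMSO cells and 1 lower in the interaction. At least a doubling was passed by 12 higher and 14 lower with iBET in Ova cells, 13 and 15 in IC cells, 1 and 0 with IC in DMSO cells and 0 and 1 in iBET cells, fewer because small changes are left out. Leaving out 1 mouse at a time gave 52 to 61 higher and 42 to 48 lower with iBET in Ova cells, 46 to 57 and 45 to 50 in IC cells, 15 to 22 and 9 to 20 with IC in DMSO cells, and 7 to 12 and 5 to 9 in iBET cells. Apart from the doubling, for which the construction shows the cause, the cause was not tested. Shares over all genes are given only for the main edgeR fit, its block and the doubling, so the other counts cannot be set against all genes. The iBET counts kept within 1.5 times of the main values under all alternatives but the doubling. A membership rule chosen after seeing the data, at least 50 counts in every group, gave 62 and 43, 53 and 49, 20 and 16, and 13 and 12. Of 3922 values of named members under alternatives, 3608 kept direction and call, 136 lost the call, 178 gained it and 0 reversed.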
